A study of Homo sapiens with 3 samples.

Results

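The HOX genes are the homeobox genes of the 4 human HOX clusters, and their messenger RNA was followed through 3 stages of chambered cardiac organoids (CCOs). The members are all rows of the deposited count table whose symbol is HOX, a cluster letter from A to D and a number, with antisense rows left out, which gives 39 of the 32738 rows. HOXA has 11 of them, HOXB 10, HOXC 9 and HOXD 9. All cells came from H7, an established line of human embryonic stem cells, which had been differentiated toward the heart with the WNT activator CHIR99021 and the WNT inhibitor IWP-2, aggregated in Matrigel and kept in a growth factor medium (CGM). On day 14 the organoids went into a spinner flask with RPMI/B27 medium, so of the 3 stages D21 alone follows a period in that flask and medium, and this change of culture cannot be told apart from the day. Droplet libraries, in which every molecule is tagged with a barcode of its cell and with a molecular identifier (UMI) of its own, were made at day 8 (D8), day 14 (D14) and day 21 (D21), with 1 library per day and no untreated or second culture. Since day and library cannot be told apart, the days were compared without a test, and every interval given is a 95% interval that covers counting error only.

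HOX genes encode transcription factors that give cells an address along the head-to-tail axis of the embryo. Within each cluster the genes lie in the order in which they are used: paralogue groups 1 to 4 are read early and near the head, and higher numbers later and nearer the tail. Retinoic acid opens the first genes of a cluster, Polycomb proteins keep the rest silent, and TALE homeodomain proteins (PBX, MEIS and PKNOX) bind DNA together with HOX proteins. In the embryonic heart, anterior HOX genes mark progenitors at the venous pole and neural crest cells that reach the outflow tract.

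On the 3 days 2657, 3585 and 1946 cells were kept of 3563, 4615 and 9149 barcodes, so at D21 alone most barcodes were left out. The kept cells held 30898727 to 50247286 UMIs per library, with a median of 12282 to 15316 UMIs per cell. Clustering, done without the HOX genes, gave 19 clusters, of which 10 were named from marker genes. Cardiomyocyte-like (CM-like) cells were cluster 5 on D8, cluster 1 on D14, and clusters 6 and 18 on D21. All 10 listed cardiomyocyte markers exceeded the rest of the day at least 2-fold in clusters 5, 1 and 6. In cluster 18, with 50 cells and a median of 8172 UMIs per cell, 8 of 10 did. Fibroblast-like cells were cluster 12 at D14, with 5 of 8 fibroblast markers above the other cells, and cluster 2 at D21, with 7 of 8. Clusters 8 (D8 and D14) and 11 (D21) carried both hepatic and foregut endoderm markers, stayed unnamed, and serve below as cells with little HOX RNA. A total of 33 barcode strings occurred in more than 1 library among the kept cells. Levels are counts of a gene per 1000000 UMIs (CPM). They come from the 3′ ends of transcripts and were not divided by gene length, so orders between genes rest on 3′ counts alone.

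Promoter sequences (the 250 bases before the annotated start, RefSeq, GRCh38.p14) are shown for 3 genes whose levels differed by day or by cell group. HOXB1 was seen at D8 and D14 and was at 0 UMIs at D21. HOXA4 was highest in D21 fibroblast-like cells, and HOXA13 was highest in cluster 8, which carries endoderm markers. The windows lie on the minus strand at chr17:48531012-48531261, chr7:27130758-27131007 and chr7:27200092-27200341. Capitals mark the PBX-HOX composite motif TGATNNAT, searched on both strands.
HOXB1: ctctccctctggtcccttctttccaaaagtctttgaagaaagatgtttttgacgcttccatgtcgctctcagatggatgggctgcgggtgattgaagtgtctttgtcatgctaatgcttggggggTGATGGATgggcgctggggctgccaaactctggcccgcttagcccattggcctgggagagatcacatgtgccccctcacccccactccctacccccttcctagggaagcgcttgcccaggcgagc
HOXA4: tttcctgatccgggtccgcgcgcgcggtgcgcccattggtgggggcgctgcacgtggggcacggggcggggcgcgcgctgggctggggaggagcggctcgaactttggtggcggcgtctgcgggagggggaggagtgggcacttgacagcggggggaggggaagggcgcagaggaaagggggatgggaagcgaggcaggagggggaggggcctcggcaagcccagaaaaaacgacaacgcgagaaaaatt
HOXA13: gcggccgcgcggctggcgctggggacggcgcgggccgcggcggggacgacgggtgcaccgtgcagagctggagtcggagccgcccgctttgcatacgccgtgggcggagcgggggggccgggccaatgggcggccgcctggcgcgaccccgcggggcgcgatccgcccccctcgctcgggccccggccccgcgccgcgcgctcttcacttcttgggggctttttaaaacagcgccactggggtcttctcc
The HOXB1 window held 1 match, which begins 125 bases before the start, and the other windows shown held none. Of the 20 HOX genes matched to the table, with 27 windows, HOXA2, HOXB1 and HOXD11 had a match, and 6.47% of all 35116 windows of this length had one. HOXC4 and HOXC5 had the same window, and some genes had several. HOXB2 to HOXB9, HOXC6, HOXC8 and HOXC9 had no window, so the counts of matches do not cover the HOX genes with the most UMIs. The retinoic acid receptor half-site AGGTCA was in none of the 27 HOX windows and in 12.1% of all windows. GC content was 57.2% in the HOXB1 window, 70% in that of HOXA4 and 78% in that of HOXA13.

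HOX RNA came almost wholly from the HOXB cluster, with shares of 96.3% at D8, 97.2% at D14 and, lower, 86.5% at D21. The summed HOX level of D8 was 92.1 CPM (89.4 to 94.9), that of D14 168 CPM (164 to 172) and that of D21 148 CPM (144 to 152). The order of D14 and D21 turned with a limit on mitochondrial UMIs of 5% in place of 10%, where the D21 level was 240 CPM and the log2 ratio of D21 to D14 0.52, against -0.18 as reported, and with TMM scaling, described below, it was 0.066. HOXB2, HOXB4 and HOXB3 were the 3 genes with the most UMIs, at 6545, 5258 and 1866 over all days. In all, 12 genes reached 5 CPM in at least 1 group of 50 cells or more, namely HOXB2 to HOXB9, HOXA3, HOXA4, HOXC8 and HOXC9.

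The other 27 genes stayed below 5 CPM in all of the 20 groups. The rows HOXC4, HOXC11, HOXC12, HOXD10 and HOXD12 had 0 UMIs in the kept cells of every library, where 3 UMIs would be 0.0641 CPM at D8, 0.0597 at D14 and 0.0971 at D21. A separate row labelled HOXC4.1, which the rule for members does not take, had 1 UMI at D14. A further 15 members had 1 to 14 UMIs over all days: HOXA6, HOXA7, HOXA9, HOXA11, HOXB13, HOXC5, HOXC10, HOXC13 and every remaining HOXD gene, led by HOXD8 with 14. HOXA2, HOXA5, HOXA10, HOXA13, HOXB1 and HOXC6 had 30 to 112 UMIs each. The HOXD cluster as a whole gave 7, 9 and 23 UMIs on the 3 days. Members with at least 10 UMIs numbered 14 at D8, 17 at D14 and 19 at D21.

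**Figure D1:**
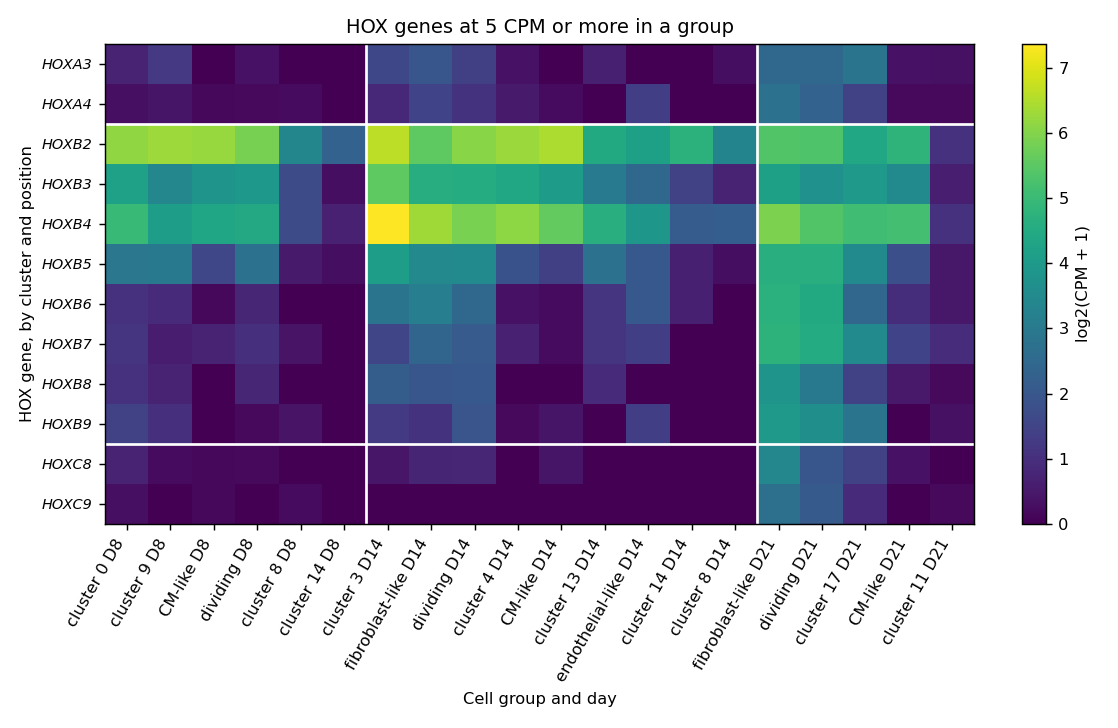
Level of the 12 HOX genes that reached 5 CPM in a group (rows, anterior to posterior within clusters A, B and C) in each of the 20 groups of 50 cells or more (columns, by day), as log2(CPM + 1). The HOXB rows hold nearly all of the signal, and rows from HOXB5 onward, with HOXA4, HOXC8 and HOXC9, are brightest in the fibroblast-like and dividing cells of D21, while HOXA3 is brightest in cluster 17 of D21.

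Of the 3 anterior HOXB genes, HOXB2 and HOXB4 changed places in the order of their level and HOXB3 was the lowest on every day. HOXB2, a hindbrain and neural crest gene, was at 53.1 CPM at D8 (51.0 to 55.2), then 64.5 CPM (62.3 to 66.8), and by D21 26.5 CPM (24.8 to 28.4). HOXB4, known for its effect on blood stem cell growth, was at 17.5 CPM (16.3 to 18.7), 65.3 (63.0 to 67.5) and 37.6 (35.4 to 39.8). HOXB3 was at 10.9, 20.2 and 11.04 CPM. At D8, HOXB2 led by a wide margin, at D14 HOXB2 and HOXB4 lay within each other's intervals, and at D21 HOXB4 led. The log2 ratio of HOXB4 to HOXB2 was -1.60 (-1.72 to -1.49) for D8, 0.02 (-0.05 to 0.09) for D14 and 0.50 (0.37 to 0.63) for D21. The strand setting of the counting is not given in the sources used here, and if strand was not used, reads of these genes and of the antisense rows between them cannot be told apart. Where neighbouring HOX transcripts overlap, their counts are likewise uncertain.

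Genes of the middle of the HOXB cluster were low at D8 and highest at D21. HOXB5, the first of them, was at 4.13 CPM at D8, 6.41 at D14 and 14.0 at D21. HOXB6 was at 0.599, 2.67 and 12.8 CPM, HOXB7 at 0.706, 1.45 and 13.1, HOXB8 at 0.492, 1.39 and 5.95, and HOXB9 at 0.684, 0.896 and 6.73. Summed, HOXB5 to HOXB9 were at 6.61 CPM at D8, 12.8 at D14 and 52.7 at D21, a log2 ratio of 0.96 (0.76 to 1.16) and then of 2.04 (1.91 to 2.17). HOXB1, a gene of the fourth hindbrain segment, went the other way, with 28 UMIs on D8, 27 on D14 and 0 on D21, at least 5.53-fold lower than at D14.

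**Figure D2:**
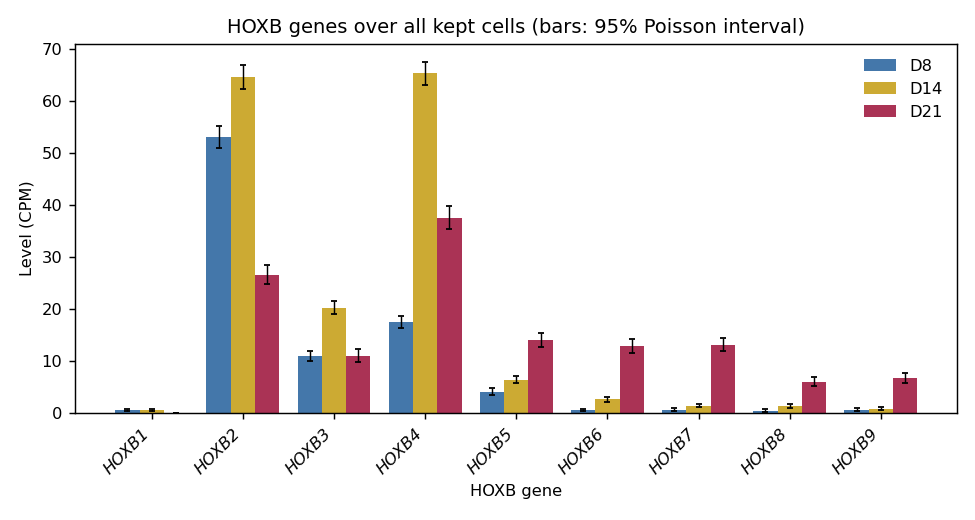
Level of HOXB1 to HOXB9 over all kept cells at D8, D14 and D21, in CPM with exact 95% Poisson intervals, from 1 library per day. HOXB2 is the highest bar at D8, HOXB2 and HOXB4 are level at D14, and HOXB5 to HOXB9 are highest at D21.

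Over all genes with at least 20 UMIs in the 2 days compared, and with 0.5 UMI added to each count, 13.4% of 17709 were 2-fold or more higher at D14 than at D8 and 4.85% 2-fold or more lower. Of the 16 HOX genes that reached that minimum, 7 were higher (HOXA3, HOXA4, HOXA13, HOXB4, HOXB6, HOXB7 and HOXB8). Their median log2 ratio was 0.85, beside 0.12 for all genes. From D14 to D21, 8.5% of 17334 genes were 2-fold or more higher and 20.1% lower, and 12 of 19 HOX genes were higher (HOXA3 to HOXA5, HOXA10, HOXB5 to HOXB9, HOXC6, HOXC8 and HOXC9) while HOXB1 and HOXB2 were lower. The median of these 19 was 1.90, beside -0.28 for all genes. The other 23 and 20 HOX genes did not reach the minimum, and a gene low on one day could reach it only through the other, so the counts describe these genes and no more. Scaling with trimmed means (TMM) shifted all genes by -0.11 from D8 to D14 and by 0.25 from D14 to D21 on the log2 scale. With it HOXB2 and HOXB4 were still lower at D21 than at D14, by log2 ratios of -1.03 and -0.55, and HOXB5 still higher, by 1.37.

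By paralogue group, the anterior groups 1 to 4 held 91.6% of D8 HOX UMIs (90.7 to 92.4%), 91.4% of those of D14 (90.8 to 92.0%) and 55.5% of those of D21 (54.1 to 57.0%). Groups 5 to 8 held 7.31%, 7.79% and 36.8%, and groups 9 to 13 held 1.11%, 0.805% and 7.67%. The mean paralogue group of a HOX UMI was 2.84, 3.27 and 4.795. Over all kept cells, D8 and D14 thus differed little in these shares, and D21 stood apart. At D21, groups 1 to 4 held 91.3% in CM-like cells and 50.3% in fibroblast-like cells. Fibroblast-like cells gave 822 of the 8444 HOX UMIs of D14 and 2940 of the 4576 of D21. With mitochondrial limits of 5% and 20% the D21 share from groups 1 to 4 was 49.9% and 63.8%. The part of the mix of kept cells in the shares was not tested.

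The summed HOX level differed more between cell groups of the same day than between days. At D14 it ran from 19.3 CPM in cluster 8 (15.5 to 23.6) to 347 CPM in cluster 3 (334 to 360). Between them lay cluster 14 at 33.3 CPM, endothelial-like cells at 46.7, cluster 13 at 63.4, CM-like cells at 155, cluster 4 at 171, dividing cells at 180 (171 to 189) and fibroblast-like cells at 186. The intervals of cluster 4 and dividing cells overlapped, as did those of dividing and fibroblast-like cells, and that of CM-like cells (148 to 162) met the edge of that of cluster 4 (162 to 181). At D8 the order was cluster 14 at 5.71, cluster 8 at 16.6, dividing cells at 104, CM-like cells at 111, cluster 9 at 119 and cluster 0 at 136. The D8 intervals of dividing cells (96.4 to 112), CM-like cells (104 to 118) and cluster 9 (110 to 128) overlapped each other. At D21 the order was cluster 11 at 7.85 CPM (5.98 to 10.1), CM-like cells at 80.0 (73.6 to 86.7), cluster 17 at 122 (102 to 144), dividing cells at 204 (188 to 221) and fibroblast-like cells at 263 (253 to 272).

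**Figure D3:**
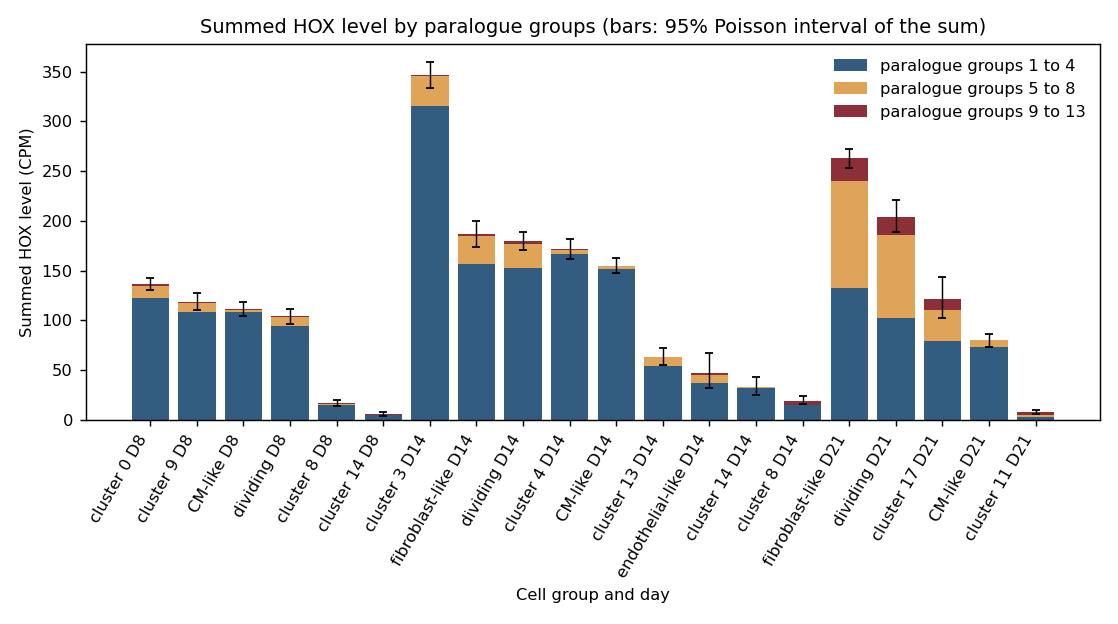
Summed level of the HOX genes in each group of 50 cells or more, in CPM, split into paralogue groups 1 to 4, 5 to 8 and 9 to 13, with exact 95% Poisson intervals of the sum. Cluster 3 at D14 has the tallest bar, at 347 CPM and nearly all from groups 1 to 4, while groups 5 to 13 make up about as much as groups 1 to 4 in the fibroblast-like and dividing cells of D21.

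Cluster 3 of D14, 714 cells led by MFAP4, NEFM and CRABP1, held the most HOX RNA of any group, and HOXB4 itself was among its leading genes. HOXB4 was at 164 CPM there (156 to 174), HOXB2 at 99.1 (92.3 to 106) and HOXB3 at 46.0 (41.4 to 50.9). Cluster 4 of the same library, led by SLIT2 and RGS4, was lower for each of these. From HOXB2 to HOXB6 the log2 ratio of cluster 3 to cluster 4 was larger with each gene, from 0.39 for HOXB2 (0.23 to 0.56) to 1.16 for HOXB3 (0.87 to 1.45), 1.26 for HOXB4 (1.11 to 1.42), 2.61 for HOXB5 (1.89 to 3.41) and 4.38 for HOXB6 (2.45 to 7.47). HOXB7, with 19 UMIs over both, was at 1.68 (0.03 to 3.73). HOXB9, with 12 UMIs over both, was at 3.23 (0.45 to 8.66). HOXB8 had 28 UMIs in cluster 3 and 0 in cluster 4, at least 7.95-fold more per UMI. Fibroblast markers summed to 2409 CPM in cluster 3 and to 1300 CPM in the other cells of D14, with 2 of 8 markers 2-fold above them, and their part in these values was not tested.

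CM-like cells carried the anterior HOXB genes HOXB2 to HOXB4 on every day, while all HOXA genes together had 6, 4 and 9 UMIs. HOXB2 was at 74.3 CPM (68.5 to 80.5) on D8, 87.3 (82.0 to 92.9) on D14 and 26.7 (23.1 to 30.7) on D21. HOXB4 was at 19.0 CPM (16.1 to 22.3), 47.3 (43.4 to 51.4) and 35.0 (30.8 to 39.6), and HOXB3 at 12.96, 16.0 and 10.53. HOXB4 thus stood well below HOXB2 at D8 and D14 and above it at D21, and the log2 ratio of HOXB4 to HOXB2 was -1.97, -0.89 and 0.39 (0.12 to 0.67). Groups 1 to 4 held 97.3%, 98.0% and 91.3% of the HOX UMIs of these cells. HOXB1 was at 1.04 CPM at D14 with 12 UMIs, and at 0 UMIs at D21, at least 2.53-fold lower.

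From D14 to D21 the summed HOX level of CM-like cells was lower, at 155 and then 80.0 CPM, a log2 ratio of -0.95 (-1.09 to -0.82). HOXB2 gave most of this, with a log2 ratio of -1.71 (-1.94 to -1.49), beside -0.60 for HOXB3 (-1.005 to -0.21) and -0.43 for HOXB4 (-0.65 to -0.22). Only 4 HOX genes reached 20 UMIs over both days. HOXB2 was the 1 of them that was 2-fold or more lower, where 19.9% of all 13784 genes were, and 0 were 2-fold or more higher, where 5.79% of all genes were. The median of all genes was -0.22.

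Fibroblast-like cells of D21 held the most RNA of posterior HOX genes, with paralogue groups 5 to 8 at 108 CPM and groups 9 to 13 at 22.5 CPM. For groups 9 to 13 their interval (19.8 to 25.5) overlapped that of D21 dividing cells (14.2 to 24.2). At D14, groups 5 to 8 were at 29.7 CPM in cluster 3 and 27.9 in fibroblast-like cells. Groups 9 to 13 were at 4.02 CPM in cluster 8 of D14 and 1.36 in fibroblast-like cells of that day. At D21, with 825 cells and 2940 HOX UMIs, HOXB7 was at 26.4 CPM (23.5 to 29.6), HOXB6 at 25.2 (22.3 to 28.3), HOXB5 at 23.7 (20.9 to 26.7), HOXB9 at 14.5 (12.3 to 16.9) and HOXB8 at 13.05 (11.02 to 15.3). HOXB5 to HOXB7 lay within each other's intervals, and so did HOXB8 and HOXB9. HOXC8, a gene of the thoracic trunk, was at 9.56 CPM (7.84 to 11.6), HOXA4 at 5.72 (4.404 to 7.30), HOXC9 at 5.63 (4.33 to 7.20), HOXA3, needed for pharyngeal organs, at 4.65 (3.47 to 6.09) and HOXC6 at 4.56 (3.39 to 5.99). HOXA5, a regulator of lung development, was at 3.75 CPM, HOXA2 at 2.59 and HOXA10 at 1.16. HOXD8 had 11 of its 14 UMIs in these cells. Anterior genes were present as well, HOXB4 at 59.7 CPM (55.2 to 64.4), HOXB2 at 40.6 and HOXB3 at 17.1. Markers of other cell types were also higher in these cells. The 8 neural or neural crest markers summed to 171 CPM, beside 21.8 in the other D21 cells and 13.4 in the fibroblast-like cells of D14, with 1 of 8 at least 2-fold above the other cells and 4 at 0. The 8 endothelial markers summed to 424 CPM, beside 211 and 289, with 3 of 8 above and 0 at 0. The part of these markers in the HOX values was not tested.

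In the fibroblast-like cells of D14 the genes HOXB5 to HOXB9 were lower than at D21, while HOXB2 was at 45.8 CPM, HOXB3 at 23.1 and HOXB4 at 79.3. HOXA2 was at 3.17 CPM there and HOXA4 at 1.81. HOXB5 was at 9.97 CPM, HOXB6 at 7.93, HOXB7 at 4.31, HOXB8 at 2.95 and HOXB9 at 1.13. The log2 ratio of D21 to D14 was -0.17 for HOXB2 (-0.42 to 0.07) and -0.44 for HOXB3 (-0.79 to -0.08). From HOXB4 onward it was larger toward the posterior end, apart from HOXB8. It was -0.41 for HOXB4 (-0.60 to -0.22), 1.25 for HOXB5 (0.78 to 1.74) and 1.67 for HOXB6 (1.16 to 2.22). HOXB7 followed at 2.62 (1.95 to 3.37), HOXB8 at 2.15 (1.33 to 3.09) and HOXB9 at 3.67 (2.42 to 5.32). HOXC8 went from 0.680 to 9.56 CPM, a log2 ratio of 3.81 (2.23 to 6.11), and HOXC9 from 0 UMIs to 63, at least 8.28-fold higher at D21. Across all genes 6.94% of 13239 were 2-fold or more higher and 13.1% lower, and of 15 HOX genes with enough UMIs 10 were higher (HOXA4, HOXA5, HOXB5 to HOXB9, HOXC6, HOXC8 and HOXC9) and 0 lower. Some of these reached the minimum only through D21, among them HOXA5 with 2 and 42 UMIs, HOXC8 with 3 and 107, HOXB9 with 5 and 162 and HOXC9, so nothing is read from this count. The summed HOX level was 186 CPM at D14 and 263 at D21, a log2 ratio of 0.50 (0.38 to 0.61), against a median of all genes of -0.20. The D14 and D21 cells are different clusters, 12 and 2, and a change within 1 cell type cannot be told apart from another kind of stromal cell at D21.

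**Figure D4:**
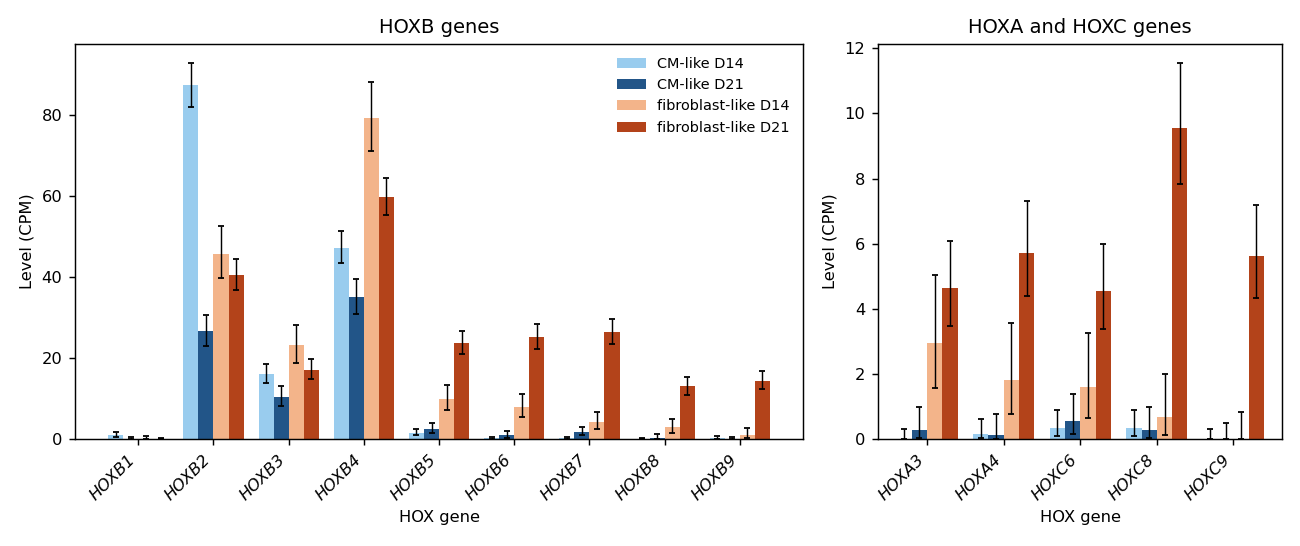
Level of HOXB1 to HOXB9 (left) and of HOXA3, HOXA4, HOXC6, HOXC8 and HOXC9 (right) in CM-like and fibroblast-like cells at D14 and D21, in CPM with exact 95% Poisson intervals; the axes differ. Both cell groups hold HOXB2, HOXB3 and HOXB4, and HOXB5 to HOXB9 with the HOXA and HOXC genes are highest in D21 fibroblast-like cells among these 4 groups. D14 fibroblast-like cells are also above CM-like cells in some of them, such as HOXB5, HOXB6 and HOXA3. For HOXA3 the log2 ratio of D21 to D14 in fibroblast-like cells has an interval around 0 (-0.24 to 1.66).

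Set beside each other at D21, the 2 cell groups differed little in anterior and greatly in posterior HOXB genes. The log2 ratio of fibroblast-like to CM-like cells was 0.61 for HOXB2 (0.36 to 0.86), 0.70 for HOXB3 (0.31 to 1.10) and 0.77 for HOXB4 (0.56 to 0.98). It was 3.27 for HOXB5 (2.58 to 4.04), 4.72 for HOXB6 (3.66 to 6.05), 3.90 for HOXB7 (3.10 to 4.82) and 4.99 for HOXB8 (3.42 to 7.29). HOXB9 had 162 UMIs in fibroblast-like cells and 0 in CM-like cells, at least 35.3-fold more, and HOXC9 had 63 and 0, at least 13.7-fold more. HOXA4 was at 5.72 and 0.137 CPM and HOXC8 at 9.56 and 0.273. Of 15 HOX genes with enough UMIs, 12 were 2-fold or more higher in fibroblast-like cells, where 17.2% of all 13443 genes were, and 0 were lower, where 15.3% were. Most of these could reach the minimum only through the fibroblast-like cells.

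CM-like cells of D21 held a few posterior HOX UMIs. HOXB5 to HOXB9 summed to 5.61 CPM, from 41 UMIs, in CM-like and to 103 CPM in fibroblast-like cells of D21, a log2 ratio of 4.197 (3.75 to 4.68). The 8 fibroblast markers summed to 236 and 5485 CPM in the same cells, with all 8 present in both, and their part in the HOX values was not tested. Paralogue groups 5 to 8 of all clusters were at 6.84 CPM (5.07 to 9.01) in the CM-like cells of D21. In cluster 11 they were at 2.13 CPM (1.22 to 3.46), and these intervals did not overlap. HOXB2 and HOXB4 were at 1.06 CPM each in cluster 11.

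Dividing cells of D21 overlapped the fibroblast-like cells of that day in some HOXB genes and were lower in others. HOXB5 was at 10.53 CPM in dividing cells of D14 and 23.6 at D21, HOXB6 at 4.59 and 21.3, and HOXB7 at 3.35 and 22.3, and the D21 intervals of these genes overlapped those of the fibroblast-like cells. HOXB4, at 40.4 CPM (33.6 to 48.2), and HOXB8, at 6.89 (4.27 to 10.5), were below the intervals of the fibroblast-like cells at D21. Within dividing cells, HOXB2, HOXB3 and HOXB4 were lower at D21 than at D14, with log2 ratios of -0.75, -0.89 and -0.54. At D21 the main dividing cluster, 16, also had 5 of 8 fibroblast markers 2-fold or more above other cells. HOXC8 stood at 2.95 CPM (1.35 to 5.61) in the dividing cells of D21, below the interval of the fibroblast-like cells. Cluster 17 of D21, 57 cells led by MYL2 and ANK2, held both cardiomyocyte markers (42732 CPM) and fibroblast markers (3197 CPM), and its HOXB5 and HOXB7 were both at 10.6 CPM (5.46 to 18.5).

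Within the D21 fibroblast-like cells, the posterior HOX genes of different clusters tended to be found in the same cells. With each cell thinned to 4000 UMIs, a UMI of HOXB5 to HOXB9 was seen in 50.9% of the 55 cells with a HOXC UMI (37.1 to 64.6%) and in 29.4% of the 770 cells without one (26.2 to 32.7%). In the 58 cells with a HOXA UMI the share was 44.8% (31.7 to 58.5%), beside 29.7% without (26.5 to 33.1%), and these intervals overlapped. For HOXB2 to HOXB4 no such split appeared, at 29.1% of the cells with a HOXC UMI (17.6 to 42.9%) and 35.2% of those without. The WT1 and TBX18 genes mark the epicardium. In the 216 fibroblast-like cells with a UMI of either, HOXB5 to HOXB9 were at 110 CPM (98.8 to 122), beside 99.99 CPM (93.2 to 107) in the other 609. HOXB2 to HOXB4 were at 94.1 CPM (83.8 to 105) and 127 CPM (119 to 135), which did not overlap.

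Clusters 8 and 11, with endoderm markers, held little HOX RNA and a posterior exception. HOXA13, a gene of the hindgut, limb and genital tubercle, was at 4.02 CPM in cluster 8 at D14 (2.42 to 6.28), from 19 of its 20 UMIs at that day. At D8 the same cluster had it at 0.151 CPM. Cluster 11 of D21 had HOXA13 at 1.33 CPM (0.638 to 2.45), and groups 9 to 13 gave 33.9% of its 59 HOX UMIs. Cluster 17 of D21 had it at 3.53 CPM, from 4 UMIs, and CM-like cells had 0 UMIs on all 3 days.

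**Figure D5:**
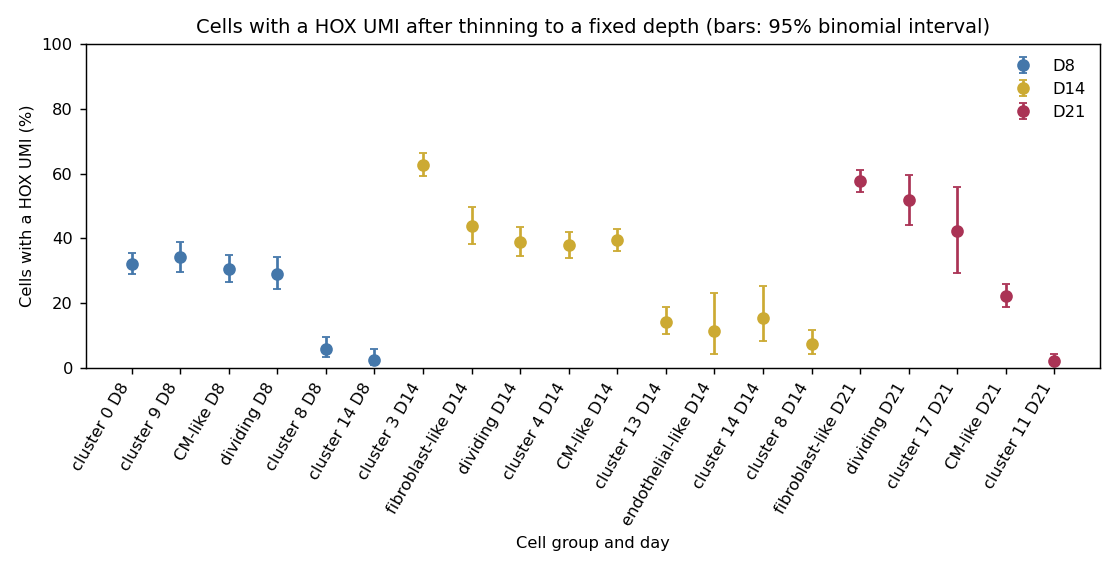
Share of cells with at least 1 HOX UMI in each group of 50 cells or more, after every cell was thinned to 4000 UMIs, with exact 95% binomial intervals. Cluster 3 at D14 and fibroblast-like cells at D21 are highest, at 62.7% and 57.8%, and clusters 14 and 8 at D8 and 11 at D21 are at 5.84% or less.

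After this thinning, which no kept cell was too shallow for, 26.9% of D8 cells (25.2 to 28.6%), 38.996% of D14 cells (37.4 to 40.6%) and 38.3% of D21 cells (36.2 to 40.5%) had a HOX UMI. Unthinned the shares were 52.9%, 63.5% and 64.0%. Cluster 11, with hepatic markers and a median of 21930 UMIs per cell, had 1.96% thinned (0.723 to 4.22%) and 12.1% unthinned, against 57.8% thinned in fibroblast-like cells with a median of 12690 UMIs. HOXB4 was seen in 39.5% of cluster 3 cells, 24.1% of D14 and 19.9% of D21 fibroblast-like cells, 14.8% of D14 and 11.1% of D21 CM-like cells, and 0 of the 306 cells of cluster 11 (0 to 1.198%). HOXB7 was seen in 10.55% of D21 fibroblast-like cells (8.53 to 12.8%) and in 0.185% of D21 CM-like cells (0.00467 to 1.02%), beside 0.327% of cluster 11 (0.00827 to 1.81%), each of these last shares from 1 cell. HOXB5 was seen in 1.11% of D21 CM-like cells (0.407 to 2.39%) and in 0 cells of cluster 11 (0 to 1.198%), and unthinned in 2.77% and 0.980%. The intervals overlapped for both genes. The median cell of cluster 3 and of the D21 fibroblast-like cells held UMIs of 2 HOX genes before thinning, and the highest count in any cell was 13.

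Of the genes that act with HOX proteins, the TALE cofactors were abundant, with 7 of 9 at 10 CPM or more on every day. MEIS2 was at 189 CPM at D8, 412 at D14 and 281 at D21, the 1 member with a 2-fold difference between successive days. PBX3 was at 97.4, 57.5 and 82.3, and PBX2 at 54.2, 58.6 and 43.4. In CM-like cells MEIS2 was at 406, 699 and 533 CPM, while in cluster 11 it was at 26.0. As background to such counts, among genes at 10 CPM or more and with 1 CPM added, 8.25% were 2-fold or more higher and 1.52% lower at D14 than at D8, and 5.46% higher and 9.18% lower at D21 than at D14.

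The ParaHox and EVX genes, relatives that pattern the tail bud and gut, had 0 of 8 members at 10 CPM on any day. CDX2, an activator of central HOX genes in the embryo, had 1 UMI on D8 and on D14 and 67 UMIs on D21, of which 66 were in cluster 11, where it was at 8.79 CPM and where PDX1 was at 5.32. In D21 fibroblast-like cells, where posterior HOX genes were highest, CDX2 was at 0.0894 CPM. CDX1 was at 1.52 CPM there, and GSX2 was at 0.257 CPM at D8, with 12 UMIs, and at 0 UMIs afterwards.

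Polycomb subunits, the keepers of silent HOX chromatin, had 16 of 20 members at 10 CPM or more on every day. From D14 to D21, 4 were 2-fold or more lower: MTF2 from 96.6 to 42.5 CPM, JARID2 from 61.0 to 26.0, PCGF2 from 60.9 to 29.9 and CBX2 from 14.1 to 5.15. RBBP4 and RBBP7, histone chaperones shared with other complexes, were the most abundant at 93.3 to 145 CPM. JARID2 was lower at D21 in CM-like cells too, at 68.9 and 32.4 CPM, as in fibroblast-like cells, at 51.0 and 23.0. In the list of trithorax proteins and H3K27 demethylases, 8, 9 and 9 of 9 were at 10 CPM or more and 0 differed 2-fold. PSIP1, KMT2A, KDM6B and ASH2L led it, with KDM6B at 51.3, 55.2 and 28.4 CPM.

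Of 18 genes of the retinoic acid response, 9, 10 and 9 were at 10 CPM or more. CYP26A1, the enzyme that breaks retinoic acid down, was at 47.9 CPM at D8, 5.67 at D14 and 2.62 at D21, and in cluster 8 of D8 it was at 208. RXRG was at 2.31, 31.3 and 17.2 CPM and TSHZ1 at 3.40, 16.1 and 11.1. At D21, ALDH1A1, which makes retinoic acid, was at 94.6 CPM after 3.82 at D14, and DHRS3 at 39.5 after 6.25, with 364 and 123 CPM in cluster 11. CRABP1 (76.7 to 6.60 CPM), STRA6 (26.1 to 9.87) and the receptor RARB (17.3 to 5.47), itself a target of retinoic acid, were lower at D21. CRABP2, a binding protein, led the list at 764 CPM at D8. CRABP1 was at 199.99 CPM in cluster 3, the group with the most HOX RNA.

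The hindbrain regulators had 2, 2 and 0 of 8 members at 10 CPM or more. OTX2, which marks the head in front of all HOX domains, was at 27.01 CPM at D8, 5.61 at D14 and 0.129 at D21, and reached 67.0 CPM in cluster 8 of D8, where HOX RNA was scarce. EGR2 was at 6.12, 12.6 and 7.31 CPM and TSHZ3 at 3.27, 4.58 and 5.21.

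The genes whose levels followed the leading HOX genes over the 20 groups were found by Pearson r of log2(CPM + 1), as a description across groups that share libraries and depth. For HOXB2 they were RFTN1 (r = 0.92), the TALE gene MEIS1 (0.91), ZC2HC1A (0.90), RNF165 (0.89) and LEPREL1 (0.89). For HOXB4 they were RUNX1T1 (0.95), DACT3 (0.95), HAND2-AS1 (0.94), TSHZ2 (0.94) and HAND2 (0.94), and for HOXB3 they were TSHZ2 (0.95), DACT3 (0.92), RUNX1T1 (0.91), COL6A1 (0.89) and RNF150 (0.89). HOXB3 and HOXB4 followed each other at 0.97, and HOXB2 followed HOXB4 at 0.83.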

How the data were processed

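CCOs from the H7 line were profiled as Chromium 3′ droplet libraries at D8, D14 and D21. The values are raw counts as deposited by the authors, UMIs of each gene in each of 17327 barcodes in 1 table whose column names give the day. The submitters' processing notes name Cell Ranger, Seurat 3.2.1 and the build hg19, so no coordinates of the counted genes are given.

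A cell was kept if it had over 2000 and under 7500 genes and less than 10% of UMIs from 13 mitochondrial genes, which left 8188. Seurat 5.3.0 (R 4.3.3, Matrix 1.6.5) clustered them on 1976 of 2000 variable genes, 20 principal components and a resolution of 0.8, with 24 genes of the HOX family and the gene lists left out. A cluster was named when at least 3 markers exceeded the rest of the day 2-fold, with 10 CPM added, and led the next class by 2. No doublet caller was run and doublets were kept. The 19 clusters gave 20 groups of 50 cells or more.

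Summed counts were expressed per 1000000 UMIs over all genes, with exact Poisson intervals, exact intervals of log2 ratios from the split of the counts, and Clopper-Pearson intervals of shares (Python 3.11.15, numpy 2.4.6, scipy 1.17.1, pandas 2.3.3, matplotlib 3.10.9), checked on simulated data. They cover counting error only. A fold against 0 UMIs used 3 counts over the group. With 1 library per day there is no test and no p-value. TMM factors came from edgeR 4.0.16. The alternatives were other limits on mitochondrial share, genes and depth, TMM scaling, a gene filter, other clusterings, unthinned cells and at least 2 HOX UMIs.

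All 39 HOX genes enter the sums and counts, with values for those at 5 CPM or more in a group. Other HOX genes are valued where a text count names them. Of each gene list, the text gives the members at 10 CPM or more, the 4 highest and those that differ 2-fold. Some genes that these rules take are not reported here. Likeness was computed for the 3 HOX genes with the most UMIs against genes at a mean of 10 CPM or more. The members, gene lists, markers and the thresholds of the naming rule were chosen with earlier results of these data known. Promoter windows are from RefSeq (GRCh38.p14) and matched by symbol. Imaging, qPCR and other experiments of the study were not analysed here.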

Additional observations from a re-analysis of the deposited data

Results flagged for a closer look

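From D14 to D21 the summed HOX level was lower in CM-like cells, by a log2 ratio of -0.95, and higher in fibroblast-like cells, by 0.50. The directions are opposite, with 1 library per day, and the difference between them was not tested.

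Antisense and other noncoding rows of the HOX clusters, which are no members, carried signal above the limit that 0 counts allow. HOXB-AS1 was at 54.5 CPM at D14, and in CM-like cells of that day at 102 CPM (96.1 to 108), beside 87.3 CPM for HOXB2, and the strand setting of the counting is not given in the sources used here. HOTAIRM1 was at 7.02 CPM at D21, with 14.2 CPM in fibroblast-like cells, HOXA-AS2 at 4.27 CPM at D21, with 9.92 in fibroblast-like cells, HOXB-AS3 at 3.10 CPM at D14 and HOXD-AS2 at 1.17 CPM at D21.

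Barcodes that the cell limits left out also held HOX RNA. Their summed HOX level of D8 was 52.8 CPM (45.4 to 61.1), that of D14 139 CPM (129 to 150) and that of D21 74.9 CPM (72.1 to 77.8), below that of the kept cells on each day.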

How the results depend on the processing

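No paired analysis was possible because each day has 1 library. The summed HOX level from D14 to D21 had no stable direction over all cells: its log2 ratio was -0.18 as reported, 0.52 with a mitochondrial limit of 5%, -0.53 with 20% and 0.066 with TMM scaling. With these limits the D21 level was 240 CPM and 116 CPM, the share of HOX UMIs from groups 1 to 4 at D21 49.9% and 63.8%, and the share of D21 cells with a HOX UMI 56.4% and 31.6%. The causes were not tested. At 5% the D14 share from groups 1 to 4 was 90.0% and the level in D14 CM-like cells 142 CPM, and at 20% the D21 CM-like level was 63.9 CPM. At 5% there is no value for D21 CM-like cells or for fibroblast-like cells of D14 or D21, and without the 5% of cells with the most UMIs none for D14 fibroblast-like cells. With TMM scaling the levels were 155 CPM at D14, 162 at D21, 143 and 87.5 in CM-like and 172 and 287 in fibroblast-like cells of D14 and D21, and the log2 ratio of D14 over D8 was 0.76. Without the 5% of cells with the most UMIs the levels were 101, 180.0 and 162 CPM at D8, D14 and D21, and the D14 share of cells was 40.7%. With over 500 genes and no upper limit, CM-like cells were at 144 CPM at D8 and 146 at D14, and D14 fibroblast-like cells at 147. Other clusterings gave D14 CM-like levels of 147 (resolution 0.4), 134 (1.2), 144 (all variable genes) and 146 CPM (days alone), D14 fibroblast-like 235 CPM (resolution 0.4), and, with days alone, 57.4 and 352 CPM in D21 CM-like and fibroblast-like cells. Unthinned, 52.9%, 63.5% and 64.0% of cells had a HOX UMI, and 8.77%, 17.7% and 17.01% had at least 2 in thinned cells. Totals over the 20394 genes seen in 10 barcodes or more moved no level. In every alternative that gave both values, D21 fibroblast-like cells held more HOX RNA than D21 CM-like cells. Among the 20 ratios of single HOX genes between days, 2 with intervals around 0 changed sign under 1 of 5 alternatives, both for D14 over D8: HOXB9 from 0.39 to -0.11 without the 5% of cells with the most UMIs, and HOXC8 from 0.31 to -0.06 with over 500 genes and no upper limit.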
